A study of Homo sapiens with 34 samples.

Results

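The genes described here are 10 immediate early genes of the FOS, JUN, EGR and IER families in an established human prostate cancer line: FOS, FOSB, FOSL1, FOSL2, JUN, JUNB, JUND, EGR1, IER2 and IER3. They were chosen by symbol. RNA-seq values were found for 9 of the 10, among 28071 genes listed, and the same 9 identifiers were among the 25035 genes of the RNA immunoprecipitation table. FOSB had no row in either table and its RNA is not analysed here. The cells were LNCaP, derived from a metastasis of prostate cancer. Androgen-dependent cells (AD) grew in RPMI1640 medium, and androgen-independent cells (AI) in the same medium with serum depleted of steroids by charcoal. RNA-seq covered AD and AI cells in 3 states, untreated, 24 h after a mock siRNA and 24 h after an siRNA against EZH2 (siEZH2), with 2 libraries per group and 12 in all. EZH2 is the methyltransferase of the Polycomb repressive complex that places the histone mark H3K27me3. RNA immunoprecipitation (RIP) with an EZH2 antibody or control IgG gave 8 libraries, and 7 chromatin immunoprecipitation (ChIP) samples have peak lists for H3K27me3 or EZH2. AD and AI stand for 1 line each. Nothing in the labels ties replicates to separate cultures, so the p-values here reflect only how far apart these libraries lie, and that spread may be technical. The labelled treatment protocol describes transfection of LNCaP/abl, an androgen-independent line, while libraries with AD in the title also carry the siRNA names. The titles were followed, and every AD value after transfection depends on them.

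FOS and JUN proteins pair through leucine zippers to form AP-1, a transcription factor. JUN proteins can pair with each other, whereas FOS proteins need a JUN partner. In most cells the FOS and EGR1 genes are nearly silent at rest and are transcribed within minutes of growth factor, serum or stress signals, because factors such as SRF, ELK1 and CREB already sit at their promoters. Their mRNAs are short-lived. JUND is the exception among these genes, since it is usually expressed in resting cells too.

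RPKM, the deposited unit, is the number of reads scaled for gene length and for library size. All 11 luminal prostate markers looked at were at 1 RPKM or more in every group, and their summed level ran from 2754 RPKM in an untreated AI library to 7063 in an untreated AD library. Of 4 basal markers 0 or 1 reached 1 RPKM (sums 0.22 to 4.64), of 11 stromal, endothelial and blood markers 0 or 1 (sums 0.57 to 3.8), and of 5 neuroendocrine markers 1 or 2 (sums 7.32 to 51.5, lowest in untreated AI). Most of the neuroendocrine sum was ENO2 alone, with group means from 6.7 RPKM in untreated AI to 48.6 in AD siEZH2. The part of these markers in the results was not tested. RPKM carries no read totals, and the steps between low values did not single out 1 depth for the RNA-seq libraries, so their depth is unknown. Replicate libraries correlated at 0.985 to 0.993 across genes. Mitochondrially encoded genes held 18.4% to 33.4% of the summed RPKM in untreated libraries and 2.1% to 4.07% in transfected ones. Untreated and transfected cells thus differ in transfection, and may differ in culture and library preparation. These cannot be told apart.

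The promoters of FOS, EGR1 and the JUN genes, whose RNA most of the results below concern, are shown first, as the 250 bases before the annotated start (RefSeq, GRCh38.p14, 5′ to 3′ on the gene's own strand). Capitals mark matches to 6 motifs searched on both strands: the AP-1 site (TRE) TGANTCA with C or G at N, the full cyclic AMP response element TGACGTCA, its core TGACG, the CArG box bound by SRF, the EGR site GCGNGGGCG and the TATA motif TATAA. The full element contains the core on both strands. FOS lies at chr14:75278578-75278827 on the plus strand, EGR1 at chr5:138465229-138465478 on the plus strand, JUN at chr1:58784048-58784297 on the minus strand, JUNB at chr19:12791236-12791485 on the plus strand, and JUND at chr19:18281623-18281872 on the minus strand.
FOS: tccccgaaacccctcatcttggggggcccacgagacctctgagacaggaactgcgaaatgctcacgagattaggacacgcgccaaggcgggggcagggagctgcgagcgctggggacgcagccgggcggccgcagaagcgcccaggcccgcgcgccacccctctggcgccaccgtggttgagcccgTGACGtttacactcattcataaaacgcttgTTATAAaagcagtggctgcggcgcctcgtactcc
EGR1: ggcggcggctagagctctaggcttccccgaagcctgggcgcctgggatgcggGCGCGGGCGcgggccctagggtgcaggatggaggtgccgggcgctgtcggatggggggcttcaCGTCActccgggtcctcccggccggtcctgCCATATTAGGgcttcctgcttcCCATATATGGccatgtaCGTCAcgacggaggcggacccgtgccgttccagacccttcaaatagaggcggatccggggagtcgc
JUN: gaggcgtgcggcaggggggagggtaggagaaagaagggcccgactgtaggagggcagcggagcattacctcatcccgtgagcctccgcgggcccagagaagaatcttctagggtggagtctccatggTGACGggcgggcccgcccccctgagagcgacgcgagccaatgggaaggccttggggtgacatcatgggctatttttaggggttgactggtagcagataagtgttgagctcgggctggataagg
JUNB: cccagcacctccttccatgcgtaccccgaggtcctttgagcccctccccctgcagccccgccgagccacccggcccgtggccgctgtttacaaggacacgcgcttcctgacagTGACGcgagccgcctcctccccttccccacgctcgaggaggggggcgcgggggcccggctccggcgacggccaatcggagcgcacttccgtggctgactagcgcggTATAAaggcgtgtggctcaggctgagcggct
JUND: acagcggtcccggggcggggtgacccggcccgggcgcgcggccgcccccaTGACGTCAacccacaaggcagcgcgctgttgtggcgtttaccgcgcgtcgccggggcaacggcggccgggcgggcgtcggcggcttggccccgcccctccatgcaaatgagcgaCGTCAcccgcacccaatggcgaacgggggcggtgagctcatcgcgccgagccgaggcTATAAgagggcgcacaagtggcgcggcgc
The core TGACG was found in all 8 members with a promoter entry (FOS, FOSB, FOSL2, JUN, JUNB, JUND, EGR1 and IER2), and in 21.2% of 35116 promoters of the same length. In FOS it begins 64 bases before the start, close to a TATA motif, and in FOSB 60 bases before it. EGR1 holds 2 CArG boxes, at 105 and 83 bases before the start, and an EGR site at 198. A CArG box was found in 1.16% of all promoters and an EGR site in 8.41%. JUND alone of the 8 had the full element, 200 bases before the start, which 1.65% of promoters hold. TATAA was found in FOS, FOSB, JUNB and JUND, against 18.9% of all promoters. The TRE was in none of the 8 windows and in 4.2% of all promoters. These are matches of letters, not measured binding.

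Per gene length, JUND was the most abundant member in every group. Its mean was 256 RPKM in untreated AD, 101 in untreated AI, 754 in AD mock and 1769 in AI mock, where it ranked 21 from the top among 14227 genes. JUN came next in all 6 groups, with 66.1 RPKM in untreated AI and 210 in AI mock. FOSL1 (FRA1) was near the limit of detection, between 0 and 0.68 RPKM over the 12 libraries, and no comparison below called it. Some neighbours in this order could not be separated. In untreated AD the JUNB and FOS values overlapped, as did those of EGR1, FOSL1 and IER3, all under 0.5 RPKM. In AD mock the FOS and EGR1 values overlapped near 4 RPKM. JUNB, FOSL2 and IER3 share bases with HOOK2, FOSL2-AS1 and IER3-AS1 respectively. Whether the authors counted by strand is not given in the sources used here, so their levels may include reads of those genes.

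**Figure D1:**
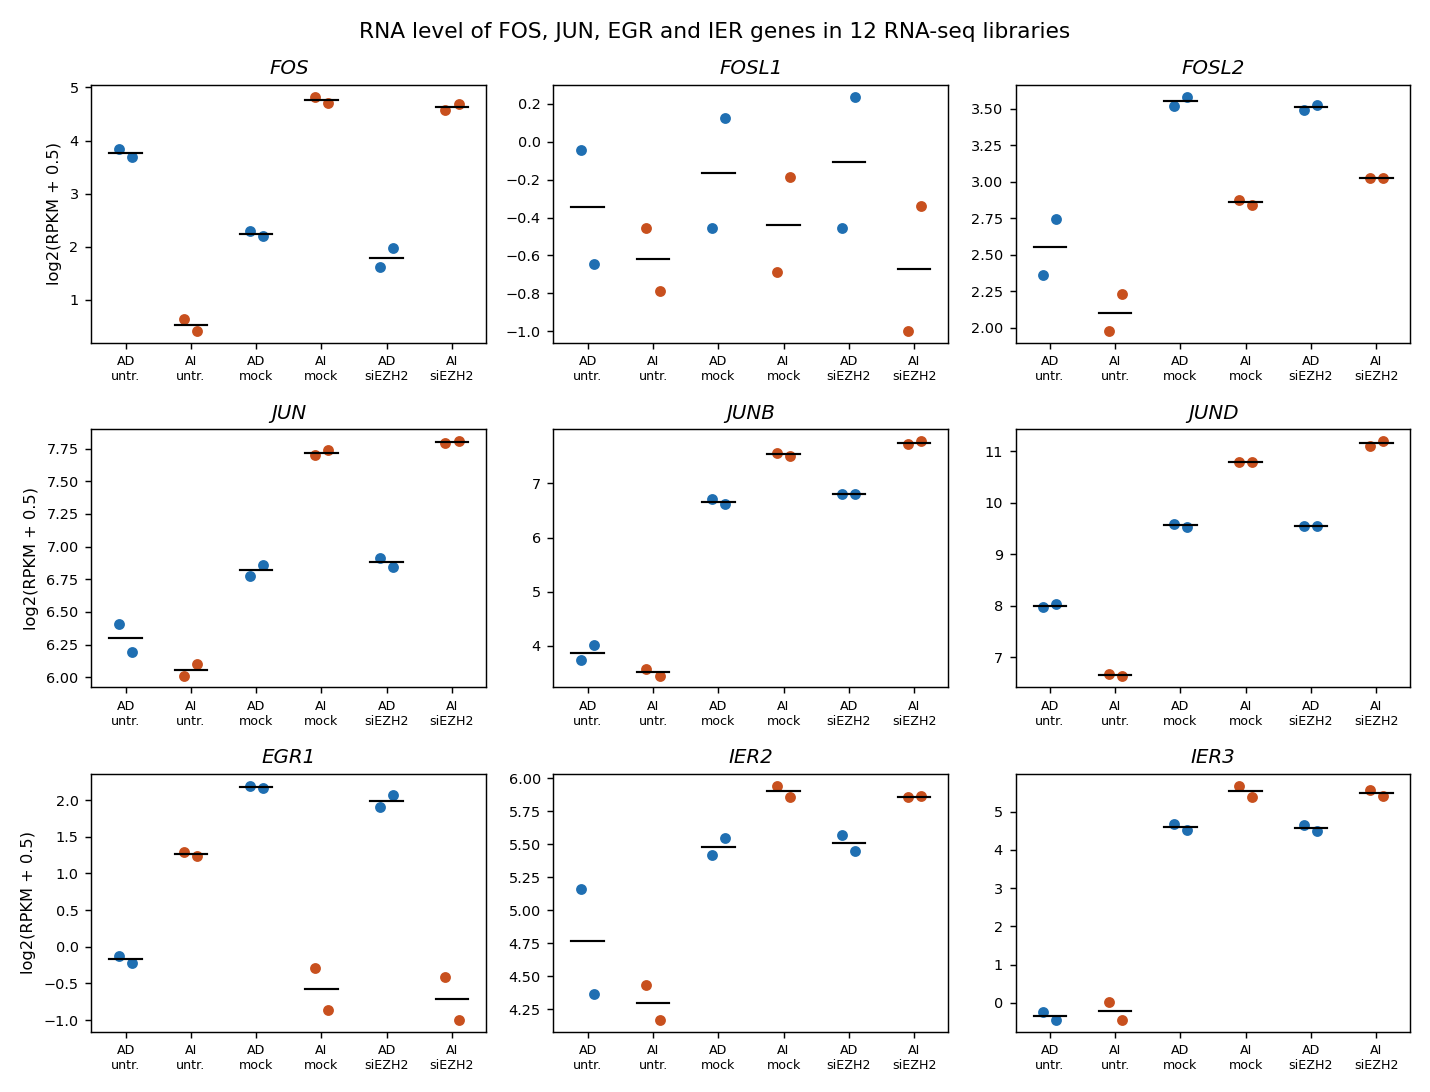
RNA level of 9 genes in 12 RNA-seq libraries, as log2(RPKM + 0.5), with an own vertical scale per gene. Points are libraries (blue AD, orange AI), bars are means of 2; FOS is low in both untreated AI libraries (0.83 and 1.05 RPKM) and high in both AI mock libraries (25.5 and 27.9), and EGR1 shows the opposite order.

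The first comparison asked how AI cells differ from AD cells without transfection. FOS RNA was much lower in untreated AI cells and JUND, the most abundant JUN gene, was lower as well, while EGR1 was higher. FOS, the founding partner of JUN in AP-1, stood at 13.8 and 12.4 RPKM in AD and at 1.05 and 0.83 in AI. It fell by 3.24 on the log2(RPKM + 0.5) scale (SE 0.146, limma adjusted p = 6.64e-07), and the groups were far apart. JUND was at 251 and 261 RPKM in AD and at 102 and 99.5 in AI, a change of -1.34 (SE 0.0967, adjusted p = 1.49e-05), again with no overlap. EGR1, a zinc finger factor of early growth response, moved the other way at low level, from 0.42 and 0.36 RPKM in AD to 1.95 and 1.86 in AI. Its change was 1.43 (SE 0.236, adjusted p = 0.00156), and the added 0.5 understates changes of genes this low.

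Smaller differences were found for FOSL2 and JUNB. FOSL2 (FRA2) had 4.63 and 6.2 RPKM in AD against 3.44 and 4.19 in AI (-0.45, adjusted p = 0.0377), and JUNB 12.9 and 15.7 against 11.4 and 10.5 (-0.36, adjusted p = 0.031). Neither pair of groups overlapped, but both calls ended when only the untreated libraries were fitted (adjusted p = 0.219 and 0.241) and without AD replicate 2 (0.197 and 0.136). FOSL2 was also lost without AI replicate 1 (0.173) and without a filter on low values (0.0617), and JUNB without AI replicate 2 (0.115). Rescaling without mitochondrially encoded genes ended both (0.12 and 0.0843). JUN had 84.2 and 72.7 RPKM in AD and 64.1 and 68 in AI (-0.24, 95% interval -0.47 to -0.01, adjusted p = 0.094). IER2, a nuclear protein of the same early response, ranged from 20.1 to 35.3 in AD and from 17.5 to 21.1 in AI (-0.47, adjusted p = 0.124), with overlap. Both passed the test with quantile normalization, with TMM scaling and without AD replicate 2, where JUN was at -0.35 (adjusted p = 0.03) and IER2 at -0.86 (adjusted p = 0.00203). IER3, which promotes survival in some stress settings, was between 0.23 and 0.52 RPKM in all 4 libraries.

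In counts, 1 of 9 members was higher and 4 were lower in untreated AI cells, with a median change of -0.36. Of all 14227 genes tested, 22.2% were higher and 12.4% lower, 34.6% in either direction, with a median of 0.13. That median moved to 0.03 with quantile normalization, and the split of 3158 higher and 1764 lower genes became 2336 and 2291. In bulk samples, fewer cells that express a gene and less RNA per cell cannot be told apart.

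After mock transfection most of these differences had the opposite sign. FOS, JUN, JUNB, JUND and IER3 were higher in AI cells, and EGR1 and FOSL2 were lower. FOS was at 27.9 and 25.5 RPKM in AI mock against 4.41 and 4.08 in AD mock, a log2 change of 2.52 (SE 0.146, adjusted p = 1.36e-06). JUND reached 1765 and 1773 RPKM in AI against 768 and 739 in AD (1.23, SE 0.0967, adjusted p = 6.73e-06). In none of these genes did the AD and AI libraries overlap.

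JUN and JUNB showed changes of much the same size. JUN, the main activating partner in AP-1, had 207 and 213 RPKM in AI and 109 and 116 in AD (0.90, adjusted p = 6.08e-05). JUNB, which can restrain JUN, had 189 and 180.2 RPKM in AI and 104 and 97.7 in AD (0.87, adjusted p = 0.000133). IER3 had 50.9 and 41.6 RPKM against 25.3 and 22.4 (0.93, adjusted p = 0.00152). JUND went from 1.23 to 0.55 with quantile normalization and to 1.77 with TMM, JUN to 1.43 and JUNB to 1.41 with TMM, all still called.

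EGR1 was almost absent from AI mock cells, at 0.32 and 0.05 RPKM, and stood at 4.09 and 3.98 in AD mock. It fell by 2.76 on the log2 scale (SE 0.236, adjusted p = 1.14e-05), and by 4.04 with a pseudocount of 0.1. FOSL2 had 6.85 and 6.68 RPKM in AI against 10.9 and 11.5 in AD (-0.69, adjusted p = 0.00267). This call ended with quantile normalization (-0.18, adjusted p = 0.343) and under TMM scaling (-0.18, adjusted p = 0.357). IER2 had 61 and 57.4 RPKM against 42.2 and 46.2 without overlap, but its change of 0.42 (95% interval -0.06 to 0.90) did not pass (adjusted p = 0.125). It did pass with TMM scaling (0.95, adjusted p = 0.00333) and in a fit of the mock libraries alone (adjusted p = 0.00363).

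So 5 of 9 members were higher and 2 lower, with a median of 0.87, where 12.2% of all genes were higher and 43.5% lower, 55.7% in all, with a median of -0.41. With quantile normalization that median was 0.02 and the split of 1731 higher and 6188 lower genes became 3440 and 3522.

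**Figure D2:**
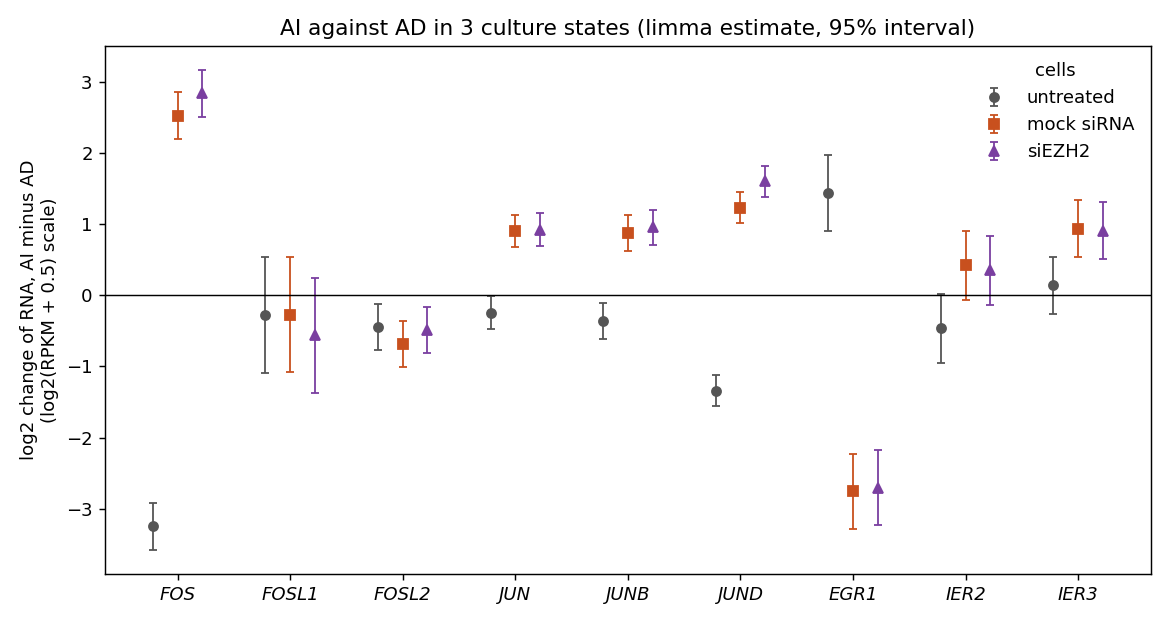
Difference between AI and AD cells for 9 genes, in log2(RPKM + 0.5), for untreated (circles), mock (squares) and siEZH2 (triangles) cells, with 95% intervals from limma. FOS lies at -3.24 in untreated cells and at 2.52 and 2.84 after transfection, JUND and JUNB change sign in the same sense, EGR1 goes from 1.43 to -2.76 and -2.70, and FOSL2 lies below 0 in all 3 states on this scale (above 0 for siEZH2 with quantile or TMM scaling).

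Calls of opposite sign in untreated and mock cells were made for FOS, JUND, JUNB and EGR1, though the untreated JUNB call did not hold in every alternative. JUN, IER2 and IER3 had no call in untreated cells. Whether the AI-AD change differed between the states, with or without a change of sign, was tested as a difference of differences. This is the AI-AD change in mock cells minus that in untreated cells. It was 5.76 for FOS (SE 0.207, adjusted p = 3.35e-07), 2.57 for JUND (adjusted p = 2.13e-06), 1.24 for JUNB (adjusted p = 0.000206) and 1.14 for JUN (adjusted p = 0.000193). EGR1 had the reverse sign, -4.19 (SE 0.333, adjusted p = 1.51e-05). IER2 (0.88, adjusted p = 0.0353) and IER3 (0.79, adjusted p = 0.0251) passed too, but both calls were lost in a fit of the 8 libraries alone (0.0737 and 0.0554), and each was lost without any 1 of several libraries. For IER2 the adjusted p rose to 0.0975 without AD mock replicate 1, 0.0636 without AD mock replicate 2, 0.0959 without untreated AI replicate 2, 0.094 without AI mock replicate 1 and 0.0693 without AI mock replicate 2. For IER3 it rose to 0.0685 without untreated AD replicate 1, 0.0843 without AD mock replicate 2, 0.0674 without untreated AI replicate 2 and 0.0951 without AI mock replicate 1. With no filter on low values the calls of IER2 and IER3 were lost too (limma adjusted p = 0.0805 and 0.0512). A pseudocount of 0.1 also ended that of IER3 (0.70, adjusted p = 0.157). FOSL2 did not differ beyond its error between the states (-0.24, 95% interval -0.70 to 0.22). Of all genes, 8.99% were called higher and 41.2% lower in this comparison, 50.2% in all with a median of -0.54, so a difference between the states was common among all genes, and mostly downward. Quantile normalization changed the split from 1279 higher and 5860 lower genes to 2620 and 2902.

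Read by line, mock cells against untreated cells, 6 members rose in both lines, FOS and EGR1 went apart, and FOSL1 was not called in either (0.18 in both). IER3 rose most. It went from 0.34 and 0.23 RPKM to 25.3 and 22.4 in AD (log2 change 4.96, adjusted p = 3.34e-07) and from 0.52 and 0.23 to 50.9 and 41.6 in AI (5.75, adjusted p = 3.74e-08). JUNB rose by 2.78 in AD (adjusted p = 6e-07) and by 4.02 in AI (adjusted p = 2.05e-08), and JUND by 1.55 (adjusted p = 4.92e-06) and 4.13 (adjusted p = 1.05e-08). In AI cells this took JUND from about 101 to 1769 RPKM, a 17.5-fold rise on this scale.

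FOS and EGR1 were the pair that went apart. FOS fell in AD, by 1.52 (adjusted p = 5.33e-05), and rose in AI, by 4.24 (adjusted p = 6.31e-08). EGR1 rose in AD, by 2.35 (adjusted p = 6.71e-05), and in AI it fell by 1.84 (adjusted p = 0.000128). JUN changed by 0.52 in AD (adjusted p = 0.00277) and 1.66 in AI (adjusted p = 1.49e-06), IER2 by 0.72 (adjusted p = 0.022) and 1.60 (adjusted p = 0.000171), and FOSL2 by 1.00 (adjusted p = 0.000496) and 0.76 (adjusted p = 0.00151). In AD the calls of JUN and IER2 were lost with quantile normalization (0.18 and 0.29), with TMM (0.09 and 0.29) and when values were rescaled without mitochondrially encoded genes (0.29 and 0.50), and that of IER2 also without untreated AD replicate 2 (adjusted p = 0.0926), AD mock replicate 1 (0.0613) or AD mock replicate 2 (0.106). The AD call of IER2 was lost as well with no filter on low values (limma adjusted p = 0.0527) and in a fit of the compared groups alone (0.0862). In AI the FOSL2 call was lost after the mitochondrial rescaling (0.40, adjusted p = 0.119).

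In each line 7 of 9 members were higher after mock transfection and 1 was lower. Of all genes 37.6% were higher and 7.73% lower in AD (45.4% in all, median 0.35), and 21.5% and 35.5% in AI (57.1% in all, median -0.20). The splits were 5355 and 1100 genes in AD, which became 2634 and 2483 with quantile normalization, and 3064 and 5057 in AI, which became 3727 and 3810. Both contrasts share their samples with the AI-AD comparisons and are not separate evidence.

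The knockdown comparison asked what siRNA against EZH2 does. EZH2 itself was at 11.5 and 10.7 RPKM in AD siEZH2 against 10.9 and 12.5 in AD mock (-0.07, adjusted p = 1), with overlap. In AI it was at 3.6 and 4.33 against 7.07 and 5.44, without overlap, and the change of -0.59 did not pass (adjusted p = 0.126). The libraries labelled siEZH2 therefore carried no reduction of the target that the test called. No member was called in either line by limma. Over all genes 0.0141% were called in AD (2 genes, 544 at an unadjusted p under 0.05) and 1.46% in AI (0.0703% higher and 1.39% lower, 208 genes, 2675 unadjusted), and in the difference between the lines 0% (976 unadjusted).

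For most members the intervals were narrow. JUN had 120.2 and 114 RPKM after siEZH2 in AD, a change of 0.06 against mock with a 95% interval of -0.17 to 0.29, and 221 and 223 in AI (0.08, interval -0.15 to 0.31). EGR1 was at 3.26 and 3.71 RPKM in AD (-0.19, interval -0.72 to 0.34) and at 0.25 and 0 in AI. The nearest to a call was JUND in AI, at 2203 and 2346 RPKM against 1765 and 1773 in mock, without overlap. Its change was 0.36 (interval 0.14 to 0.58, adjusted p = 0.0894), and a fit of these libraries alone called it (adjusted p = 0.0143). FOS in AD was at 2.58 and 3.42 RPKM against 4.41 and 4.08 (-0.45, interval -0.78 to -0.12, adjusted p = 1). The siEZH2 effect did not differ detectably between lines for either gene (JUND 0.37, adjusted p = 0.645, FOS 0.32, adjusted p = 0.851).

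The siEZH2 libraries also compare transfected AD and AI cells in libraries other than the mock ones. No label shows that they came from separate cultures. FOS was at 23.4 and 25.2 RPKM in AI (log2 change against AD siEZH2 2.84, adjusted p = 7.48e-07). JUND (1.60, adjusted p = 1.66e-06), JUNB (0.95, adjusted p = 7.35e-05), JUN (0.92, adjusted p = 5.25e-05) and IER3 (0.91, adjusted p = 0.00176) were higher too. EGR1 was lower (-2.70, adjusted p = 1.24e-05). FOSL2 was lower as deposited (-0.48, adjusted p = 0.0167) but not with quantile normalization (0.068) or TMM (0.076), and its call was lost on leaving out any 1 of the 4 libraries (adjusted p from 0.0607 to 0.0762). The count of 5 higher and 2 lower stood beside 10.6% and 47.1% of all genes, 57.7% in all, with a median of -0.48. Quantile normalization turned the split of 1508 higher and 6698 lower genes into 3225 and 3358.

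These shifts changed the make-up of the AP-1 RNA. In untreated AD, FOS supplied 73% and 66.2% of the summed RPKM of FOS, FOSL1 and FOSL2, whereas in untreated AI FOSL2 supplied 72.9% and 82.2%. After mock transfection the order was swapped, with FOSL2 at 70.2% and 71.1% in AD and FOS at 80% and 78.3% in AI. The JUN family was always mostly JUND, at 55.9% to 57.5% in untreated AI and 81.6% and 81.9% in AI mock. JUN, JUNB and JUND summed to 348 and 350 RPKM in untreated AD, 177 and 178 in untreated AI, 981 and 952 in AD mock and 2161 and 2166 in AI mock. In every library the JUN family exceeded the FOS family, by 18.4-fold in 1 untreated AD library and by up to 84.7-fold in AI siEZH2. FOSB is not part of these sums.

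**Figure D3:**
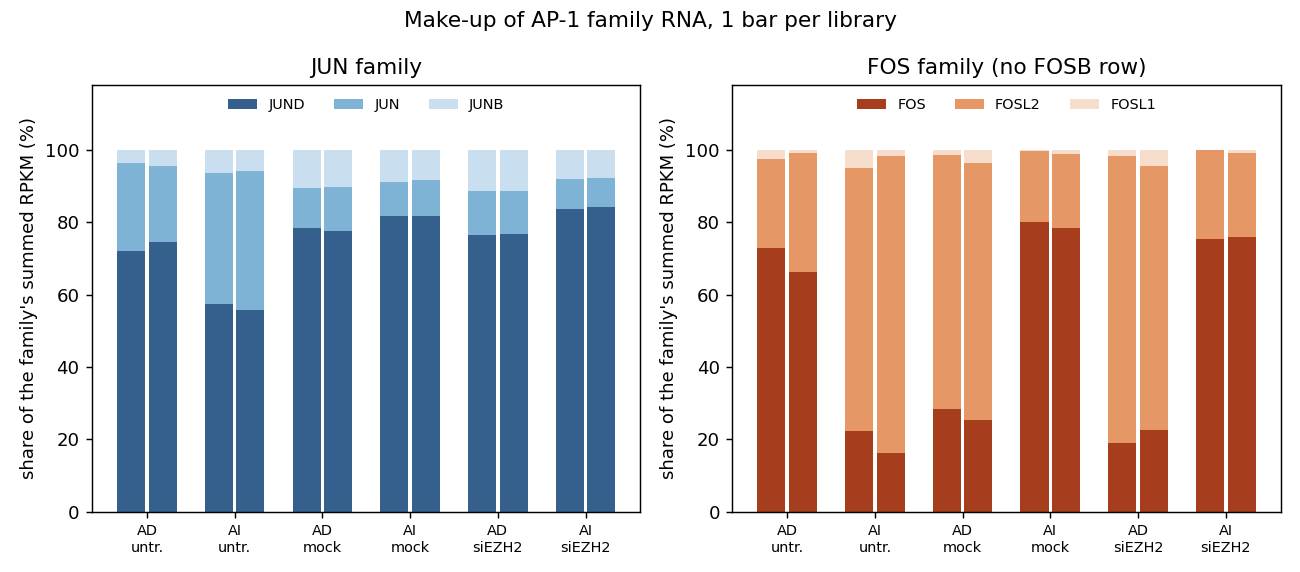
Share of each gene in the summed RPKM of the JUN family (left) and of FOS, FOSL2 and FOSL1 (right), 1 bar per library. FOS is the larger part in untreated AD (73% and 66.2%) and in AI mock (80% and 78.3%), and FOSL2 is the larger part in untreated AI and AD mock.

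Genes of the same pathways gave the setting, beside all genes tested (22.2% higher and 12.4% lower in untreated AI, 12.2% and 43.5% in AI mock). Of 30 tested immediate early genes outside the 10, 3 were higher and 11 lower in untreated AI cells (median -0.24), and 14 were higher and 11 lower in AI mock cells (median 0.22). GADD45B and MAFF had the signs of FOS in both states, and PLK2 those of EGR1. GADD45B, a stress-induced growth arrest gene, had 25 and 17.1 RPKM in untreated AD and 9.05 and 9.66 in AI (-1.10, adjusted p = 0.000586), but 49.4 and 53.1 in AD mock and 438 and 450 in AI mock (3.10, adjusted p = 5.59e-07). MAFF, a small MAF factor, went from -2.11 in untreated cells (adjusted p = 9.59e-06) to 3.02 in mock cells (adjusted p = 5.34e-07). PLK2, a polo-like kinase, was higher in untreated AI (1.16, adjusted p = 0.000798) and lower in AI mock (-3.29, adjusted p = 7.3e-07). ATF3, a stress-induced bZIP factor that pairs with JUN, was higher in AI in both states (0.99, adjusted p = 4.05e-05, and 2.70, adjusted p = 9.29e-08) and reached 971 and 963 RPKM in AI mock. KLF6 was called higher in AI in both states (2.05 untreated, 2.63 mock) and KLF4 lower in both (-1.12 and -1.38). MYC (-0.93 and -1.65) and BTG2 (-0.96 and -1.65) were also called lower in both.

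Other bZIP partners of AP-1 and the EGR corepressors were split in untreated cells (3 of 11 higher, 4 lower, median 0.12). In AI mock 2 were higher and 6 lower (median -0.72), where 12.2% of all genes were higher and 43.5% lower (median -0.41). BATF2, among the lower genes, reached 0.5 RPKM only in AD mock among untreated and mock libraries. JDP2, a repressive JUN partner, was at 7.02 and 8.14 RPKM in untreated AI against 18.4 and 22.2 in AD (-1.36, adjusted p = 5.23e-05). NAB2, a corepressor of EGR1, was lower in AI in both states (-0.80, adjusted p = 0.00493, and -0.95, adjusted p = 0.000824). NAB1 was higher in untreated AI (0.61, adjusted p = 0.0493) and lower in AI mock (-1.19, adjusted p = 0.00103). In AI mock ATF4, the main factor of the amino acid response, was higher (1.87, adjusted p = 0.000307). BATF3 was lower in both states (-1.17, adjusted p = 0.00503, and -2.92, adjusted p = 9.25e-06).

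Upstream of these genes, 25 receptors, kinases and promoter factors were tested, with 3 higher and 4 lower in untreated AI (median 0.24) and 4 higher and 8 lower in AI mock (median -0.16). EGFR, the epidermal growth factor receptor, was at 15.7 and 25.4 RPKM in untreated AD and 3.97 and 4.93 in AI (-2.06, adjusted p = 7.61e-05). BRAF, a kinase of the growth factor pathway, was higher in AI mock (1.79, adjusted p = 6.35e-06), and ERBB2 was lower (-1.17, adjusted p = 4.76e-05). Of 13 tested ERK feedback inhibitors, 0 were higher and 5 lower in untreated AI, and 1 was higher and 6 lower in AI mock (medians -0.25 and -0.86). Among untreated and mock libraries, SPRY4 reached 0.5 RPKM only in untreated AD (0.68 and 1.04). SPRED3 did so only in AD (0.5 and 0.9 untreated, 0.73 and 0.9 mock). SPRY4 is among the lower genes in untreated AI, and SPRED3 in both states. Passing the filter through the groups where they are high partly fixed these calls. For all genes tested, 22.2% were higher and 12.4% lower in untreated AI, and 12.2% and 43.5% in AI mock. SPRY1, a receptor signalling inhibitor, was lower in both states (-1.69, adjusted p = 5.39e-05, and -1.55, adjusted p = 2.53e-05). DUSP4, an ERK phosphatase, was also lower in both (-0.93, adjusted p = 0.000115, and -1.42, adjusted p = 3.11e-06).

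Of 20 genes listed as reported AP-1 targets, 9 passed the filter on low values and were tested. Of these, 1 was higher and 3 lower in untreated AI (median -0.12). In AI mock, where FOS and all JUN genes were higher, 1 was higher and 7 lower (median -1.18), beside 12.2% and 43.5% of all genes. For mock against untreated cells, 8 were higher and 0 lower in AD (median 1.02), and 2 were higher and 0 lower in AI (median -0.04). The group was not tested against FOS or JUN RNA. Among untreated and mock libraries, CXCL8, PLAUR and ITGA2 reached 0.5 RPKM only in AD mock (0.99 and 1.25, 2.04 and 1.55, 0.84 and 0.81). They are among the 7 lower genes. Passing the filter through the group where they are high partly fixed their calls, so these counts do not describe the list as a whole. CCND1, cyclin D1, was at 62.6 and 66.8 RPKM in AI mock against 178 and 183 in AD mock (-1.47, adjusted p = 3.12e-05). HMOX1, heme oxygenase, was lower in both states (-1.78, adjusted p = 2.26e-05, and -2.49, adjusted p = 1.11e-06). VIM, vimentin, did share the sign of FOS, at -2.84 in untreated (adjusted p = 2.06e-06) and 0.62 in mock cells (adjusted p = 0.00609). No gene of the 5 lists was called by limma for siEZH2 against mock in either line. All list counts are to be read beside the shares and medians of all genes given above.

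Across the 12 libraries, the genes whose log2 values were most like those of FOS were CLEC3B (Pearson r 0.975), STC1 (0.975), PPP1R3B (0.961), PIGL (0.961) and QARS1 (0.959), among 10882 genes with a mean of at least 1 RPKM. For JUN they were GADD45B (0.997), ECH1 (0.99), DDX41 (0.989), GPT2 (0.987) and EIF3D (0.987). For EGR1 they were POLA2 (0.984), TOMM40L (0.98), SNX1 (0.979), IFI35 (0.979) and SQSTM1 (0.977). Within the members, JUNB and IER3 were closest (0.991), JUNB and JUND next (0.966), and FOS and EGR1 were opposed (-0.82). The 12 values fall into 6 groups of replicates, so these coefficients describe group means more than single libraries.

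RIP asked which RNAs were bound by EZH2. No member was recovered above IgG beyond the error, and the IgG libraries were shallow. From the steps between low values, the AD libraries held an estimated 8.12 and 7.02 M reads (M for mega) with EZH2 antibody and 0.368 and 1.84 M with IgG. For AI the estimates were 7.84 and 4.52 M with EZH2 antibody and about 0.598 and 0.0788 M with IgG, where other depths were as good. JUN, the member with the highest mean in AI EZH2 RIP, had 1.49 and 3.29 RPKM with the EZH2 antibody and 1.52 and 4.88 with IgG in AD, and 3.28 and 7.18 against 5.53 and 6.94 in AI. Its change was -0.26 in AD (95% interval -2.02 to 1.49) and -0.31 in AI (interval -2.07 to 1.44). The groups overlapped, and intervals this wide leave room for changes of over 2-fold either way.

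JUND, by far the most abundant member in RNA-seq, was at 1.84 and 3.2 RPKM with EZH2 antibody in AD and 1.57 and 3.15 in AI, close to the middle of all genes in these libraries (51.2% and 46.5% of genes were lower). The RIP and RNA-seq tables were scaled separately, so only the ranks are set side by side. JUNB was listed below IgG in AD, at 0.47 and 0.78 against 4.43 and 2.67 RPKM, without overlap (-1.83, adjusted p = 0.723). These values amount to about 7 and 10 reads with EZH2 antibody and about 3 and 9 with IgG. In AI the 2 IgG values were 0 and 20.2 RPKM, the second of which amounts to about 3 reads. Leaving out the IgG library at 0 made JUNB the only member called by any RIP alternative (-4.17, adjusted p = 0.0318), a value that rests on those reads. EGR1 was at 0.04 and 0.09 RPKM with EZH2 antibody and 2.57 and 0.34 with IgG in AD, and at 0.37 and 0.9 against 0 and 0 in AI. IER3 was at 17.9 RPKM in 1 AD IgG library and at 0.1 or less in the other 7, and was too low to test.

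Of 13667 genes tested, limma called 0% in each of the 4 RIP comparisons, and 0 of the 8 members tested. At an unadjusted p under 0.05 there were 1383 genes for EZH2 against IgG in AD, 2930 in AI, 233 for EZH2 RIP in AI against AD and 436 for the difference of differences. Of the members, only EGR1 was under that level, in the last comparison (2.65, unadjusted p = 0.0201, limma adjusted p = 1).

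**Figure D4:**
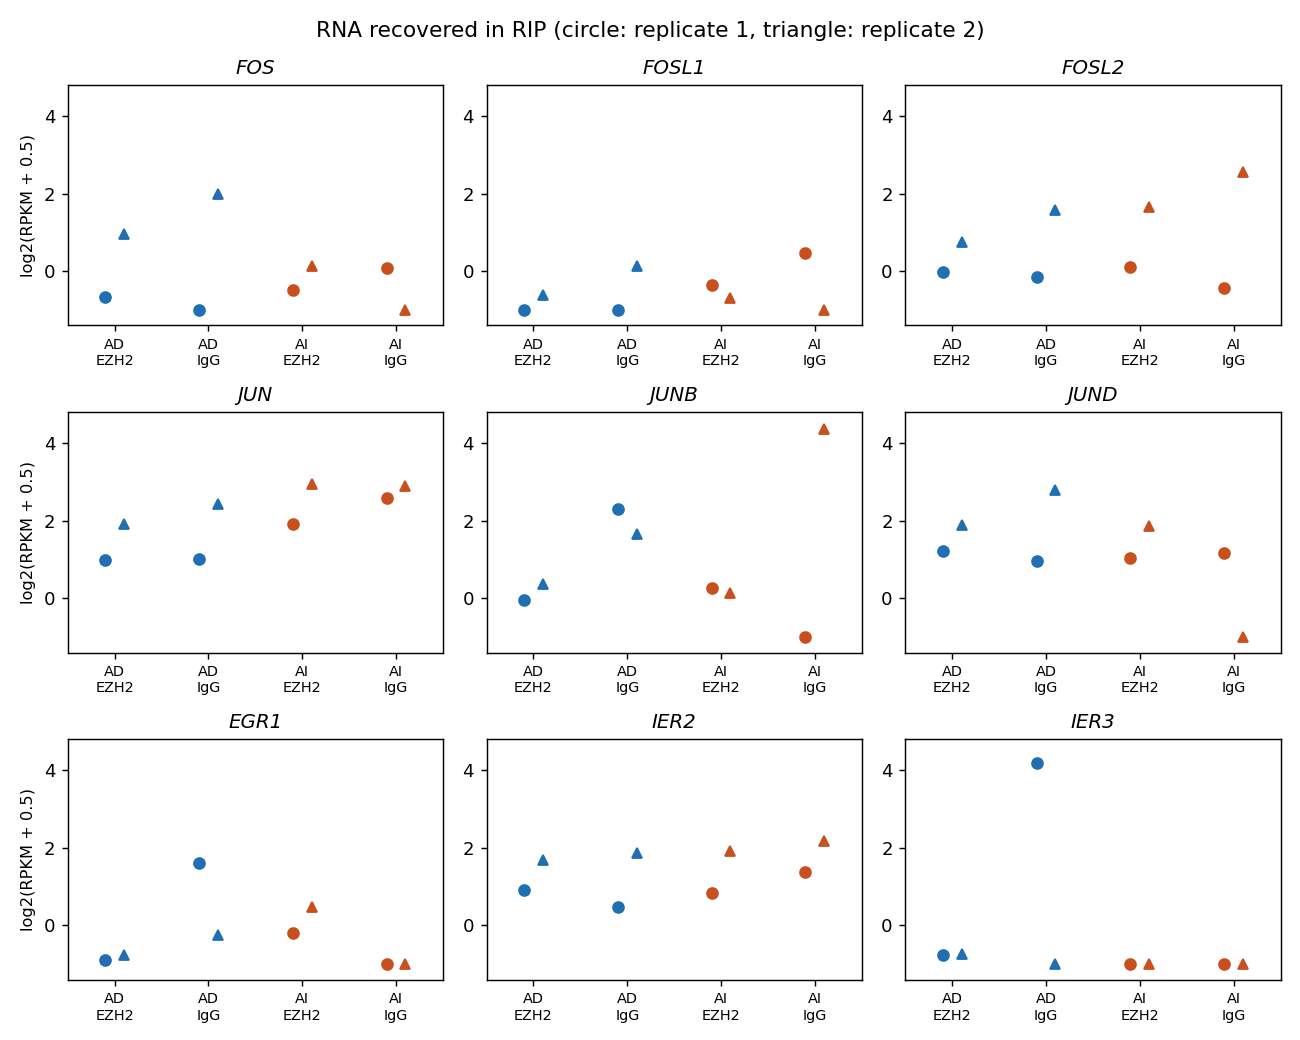
RNA recovered by RIP for 9 genes, as log2(RPKM + 0.5), with EZH2 antibody or IgG in AD (blue) and AI (orange) cells. Circles are replicate 1 and triangles replicate 2; replicate 2 lies above replicate 1 for JUN and IER2 in every group, and the highest points are IgG values of JUNB (20.2 RPKM) and IER3 (17.9 RPKM).

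H3K27me3 peaks lay near members in 1 of 4 samples, and EZH2 peaks near 1 to 6 members in each of 3 samples. A gene was counted when a peak lay within 5 kb of its start or in its body, with coordinates in GRCh38. For 10886 of the 22258 genes no strand was at hand, and both gene ends were then taken as starts. FOSL1 and IER3 are among these. In AD cells no member had an H3K27me3 peak in either sample, where 21.4% and 21.8% of 22258 genes had one. In AI cells 0 members had one in replicate 1 (23.1% of genes) and 3 in replicate 2 (27.4% of genes): FOS, EGR1 and FOSL1. The FOS peak, at chr14:75278553-75281302, ran from -275 to 2474 bases relative to the start and covered the whole printed promoter. The EGR1 peak, at chr5:138465250-138467249, ran from -229 to 1770. The authors' scores, 296 for FOS and 217 for EGR1, lay above those of 71.9% and 63.7% of that list, and the FOSL1 peak at chr11:65898994-65901124 (score 875) above 91.4%. The other AI replicate had no peak at these genes, so the calls did not repeat between samples.

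EZH2 peaks were listed near 6 members in AD replicate 1 (FOS, FOSL1, FOSL2, JUND, EGR1 and IER2) and near 2 in AD replicate 2 (JUND and IER2), against 50.5% and 24.3% of all genes. In the single AI sample only FOSL1 had one (21.9% of genes). JUND and IER2 were thus the members with an EZH2 peak in both AD samples. At JUND these peaks lay at -3423 to -2946 and at -2265 to -1873 bases from the start, and at IER2 at -3170 to -2790 and at -1797 to -1345, so they did not overlap each other. Within 1 kb of the start the count in AD fell to 1 (EGR1) in replicate 1 and 0 in replicate 2. JUN, JUNB, FOSB and IER3 had no EZH2 or H3K27me3 peak in any list under the 5 kb or gene body rule, and JUNB gained 1 in AD EZH2 replicate 1 within 10 kb.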

How the data were processed

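RNA-seq and RIP values are RPKM as deposited by the authors. Per the submitters' processing notes cutadapt, TopHat2 and edgeR were used for RNA-seq and RIP and Bowtie2 for ChIP, with build GRCh38 and no versions. Annotation, counting tool and strand use: not given in the sources used here. Deposited peak lists carry the authors' score per peak, at least 50 in every list, 1 list per sample. A count test had been planned in case of counts. For RPKM the test was limma 3.58.1 (R 4.3.3) with a trend on log2(RPKM + 0.5), fitted to the 12 RNA-seq or the 8 RIP libraries together with a mean for each group, for genes at 0.5 RPKM or more in at least 2 libraries. Benjamini-Hochberg adjustment ran over all genes tested, at 0.05, and intervals are 95%. The procedure was tested on simulated data. Groups and replicate numbers came from sample titles, and inputs were not analysed. Alternatives were other pseudocounts (0.1, 1), filters (none, 1 RPKM), scalings (quantile, TMM on RPKM, sum without mitochondrially encoded genes), a fit of the compared groups alone, a replicate block, leaving out each library, and other peak windows, overlaps and scores. Named genes were all 10 members, EZH2, from each pathway list at most 3 called rises and 3 called falls with a mean of at least 1 RPKM and no overlap between groups in untreated and in mock cells, and the 5 genes most like FOS, JUN and EGR1. Some genes that this rule would name are not reported here. Members and lists were chosen with earlier results of these data known.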

Additional observations from a re-analysis of the deposited data

Results flagged for a closer look

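For 7 members the AI-AD difference itself differed between mock and untreated cells by the limma test of the difference of differences. Of all 14227 genes tested, 50.2% were called in the same comparison. The values of the 7 members, as mock minus untreated log2 change, were 5.76 for FOS, 2.57 for JUND, 1.24 for JUNB, 1.14 for JUN, 0.88 for IER2, 0.79 for IER3 and -4.19 for EGR1. The IER2 and IER3 calls were lost in a limma fit of the compared groups alone (adjusted p = 0.0737 and 0.0554). Mock and untreated libraries also differ in mitochondrial share (2.37% to 4.07% against 18.4% to 33.4%), whose part was not tested beyond a rescaling without those genes, after which IER3 alone of the 7 lost its call (0.54, adjusted p = 0.207).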

How the results depend on the processing

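Over 1492 refitted member values, 1436 kept their call or lack of one, 42 lost a call, 12 gained one and 2 with a call reversed sign. A change of sign between values that were not called was counted as kept. IER3 in untreated AI against AD, for example, was at 0.14 and went as low as -0.10. FOS, JUND and EGR1 kept their direction and calls in every RNA alternative for AI against AD and for mock against untreated cells. Both reversals were FOSL2 for siEZH2 AI against AD, 0.068 with quantile normalization (adjusted p = 0.741) and 0.076 with TMM (adjusted p = 0.714). In untreated cells the 5 calls became 3 (1 higher, 2 lower) with the rescaling without mitochondrially encoded genes and 3 in the fit of those groups alone, which also cut all calls from 4922 to 1758. For siEZH2 against mock in AI the members called went from 0 to 1 in the fit of those groups alone, with 208 genes called in all becoming 1204 there, 11 with quantile normalization, 58 with TMM, 63 without mitochondrially encoded genes, 371 with the block and 0 without any 1 library. In AD the 2 genes called became 45 with no filter and 0 or 1 in 11 other alternatives. Leaving out 1 library gave 4 to 5 members called in untreated cells, 7 in mock, 6 in siEZH2, 7 to 8 for mock against untreated in AD, 8 in AI, 5 to 7 for the difference of differences, and 0 to 1 for RIP in AI, where all calls went from 0 to 733 without IgG replicate 1. No label ties a replicate number to a shared culture or day. Replicate differences correlated between groups at -0.0044 to 0.701 in RNA-seq (median 0.0542, highest between untreated AD and AI) and at 0.0972 to 0.713 in RIP (median 0.269, highest between AD and AI EZH2 RIP), so whether the numbers pair the samples was not settled. With the replicate block, 0 of 113 member values changed call (5 members called in untreated cells, 7 in mock cells, 8 for mock against untreated in each line), while RIP calls over all genes went from 0 to 483 in AD and 1338 in AI. Members with EZH2 peaks in AD went from 6 to 1 in replicate 1 and from 2 to 0 in replicate 2, both at a score of at least 100 and within 1 kb of the start, those in AI from 1 to 0 at that score, and H3K27me3 in AD replicate 2 from 0 to 1 within 10 kb. The cause of these changes was not tested. Having 2 libraries per group limits the precision throughout, and shallow IgG libraries limit RIP.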
